A study of Mus musculus with 30 samples.

Results

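Glycolysis and the response to low oxygen were followed through 36 mouse genes in a model of oral carcinogenesis. The genes were chosen by symbol from these known pathways. Of the 36, 23 take up glucose, carry it through glycolysis or handle pyruvate and lactate, and 13 are known as genes induced by hypoxia. They are 36 of the 55487 genes in the deposited count table, and all 36 had enough counts to be among the 17638 genes tested. RNA was sequenced from 30 samples of a mouse model in which animals drink water with 4-nitroquinoline-1-oxide (4NQO), a carcinogen that binds to DNA. Normal tissue was represented by 3 samples, hyperplasia by 8, dysplasia by 7, and carcinoma in situ and invasive carcinoma by 6 each, as the pathology in the labels sorts them. All samples carry the same remaining labels: male C57BL/6J mice, tissue named oral squamous cell carcinoma, and 4NQO at 100 ug/mL over 10 weeks from an age of 6 weeks. As the normal samples carry them too, it is not clear from the labels whether their mice were exposed to 4NQO.

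Glycolysis turns glucose into pyruvate through a chain of enzymes, several of which exist as isoforms encoded by separate genes that differ between tissues. When oxygen is short, hypoxia-inducible transcription factors escape degradation and bind a short motif, the hypoxia response element, near genes for glucose transport, glycolysis, pH control, vessel growth and the removal of mitochondria. Squamous carcinomas often outgrow their blood supply, and tumour cells are known to make lactate from glucose even where oxygen is present. Skeletal muscle, which underlies the lining of the mouth and tongue, is itself rich in glycolytic enzymes and has its own forms of several of them.

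Between 17725604 and 28023098 reads were counted per sample. Levels are in CPM, which are counts brought to a common library size and adjusted with TMM factors. Values per kb divide CPM by the joined length of all annotated exons of a gene, which can exceed the length of its transcripts. Log2 fold changes carry ± 1 standard error (SE), and a gene is said to rise or fall where edgeR's quasi-likelihood test, adjusted by Benjamini-Hochberg over all tested genes, gave an adjusted p under 0.05. Nothing in the labels says that the samples of a group were separate animals, so these p-values measure the spread between samples, which may be technical. The letter of a sample code gives the stage (A is hyperplasia, B dysplasia, D normal, and C covers carcinoma in situ as well as invasive carcinoma). Stage and a batch that goes with the letter therefore cannot be told apart, except between the carcinoma stages, which share a letter. Skeletal muscle RNA was abundant in every sample: 30 muscle markers, none of them at 0 in any stage, summed to 68543 to 93636 CPM in normal tissue, 44379 to 78982 in hyperplasia, 33190 to 60531 in dysplasia, 33671 to 58661 for carcinoma in situ and 21039 to 50640 for invasive carcinoma. The mean log2 CPM of the tested muscle markers, called the muscle score here, ran from 7.73 in invasive carcinoma sample C12 to 9.67 in normal sample D02. In bulk tissue, fewer cells of a type and less RNA per cell cannot be told apart.

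These libraries at the ends of the muscle score also stood at the ends for the members. C12 held the highest value of all 30 samples for 15 of the 36 members and the lowest for 4 (Pfkm, Pfkfb4, Aldoa and Ldhb). D02 held the highest value for 8 members, among them Pfkm, Aldoa, Gapdh and Ldhb. Normal sample D01 held the lowest value for 10 members, and its erythroid marker score of 6.3 was the highest of all, against 5.53 in dysplasia sample B01, 4.12 in C12 and at most 3.13 in the others. Dysplasia sample B06 held the lowest value for 8 members. Results that rest on any of these libraries are given with and without them.

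**Figure D1:**
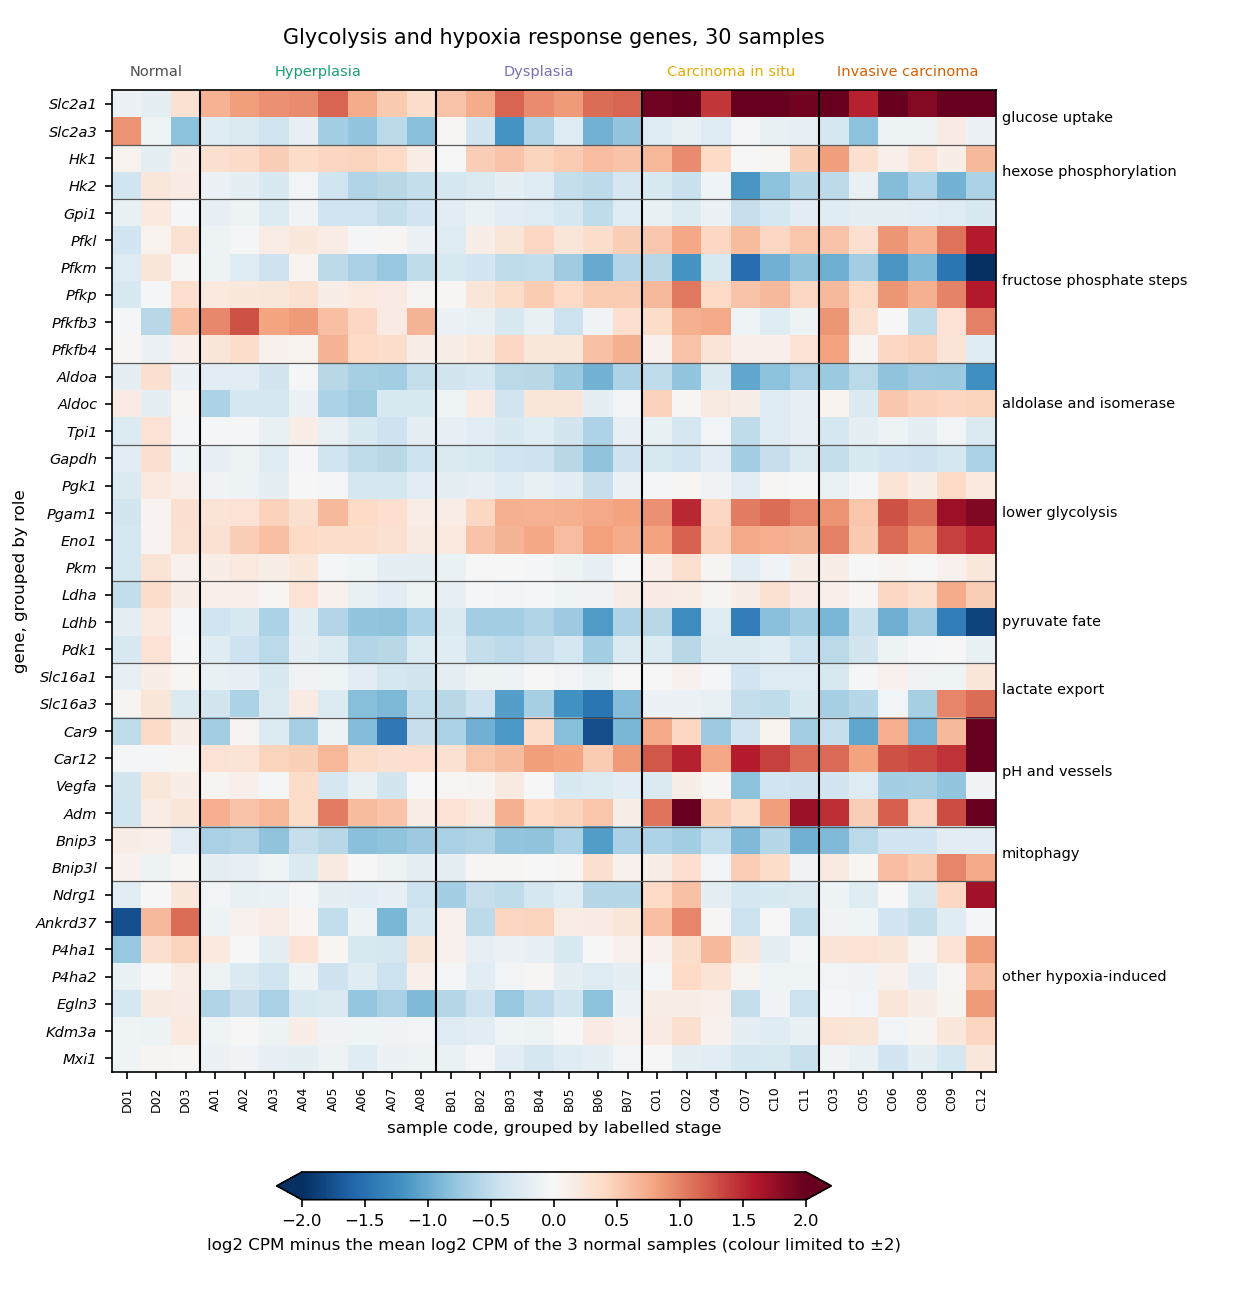
Heat map of the 36 genes (rows, grouped by role) in the 30 samples (columns, grouped by stage). Colour is log2 CPM minus the mean log2 CPM of the 3 normal samples, limited to ±2. The rows of Slc2a1, Car12, Pgam1 and Eno1 turn red in the carcinoma columns, the rows of Pfkm, Aldoa and Ldhb turn blue, and C12 holds the highest value of 15 genes.

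Promoter sequence was available from RefSeq (GRCm38.p6) for 33 of the 36 members, as 51 windows of 300 bases that run from 250 before to 50 after a gene's start. The windows were searched on both strands for ACGTG and GCGTG, the core letters of the hypoxia response element. ACGTG lies within the palindrome CACGTG, a different factor's motif known as the E-box, in which it is counted on each strand. ACGTG was found in 51% of the members' windows and in 19.6% of all 32851 windows in the table, and GCGTG in 52.9% and 32.4%. Windows with either motif made up 76.5% of the members' and 43.8% of all, and CACGTG was in 9.8% and 7.15%. These are descriptions of letters: a match is not a bound site, and the genes were chosen as known members of these pathways. The windows of 5 members to which the results below return are shown 5′ to 3′ on the gene's strand, in lower case, with each match on either strand in capitals.
Slc2a1, chr4:119108495-119108794, plus strand: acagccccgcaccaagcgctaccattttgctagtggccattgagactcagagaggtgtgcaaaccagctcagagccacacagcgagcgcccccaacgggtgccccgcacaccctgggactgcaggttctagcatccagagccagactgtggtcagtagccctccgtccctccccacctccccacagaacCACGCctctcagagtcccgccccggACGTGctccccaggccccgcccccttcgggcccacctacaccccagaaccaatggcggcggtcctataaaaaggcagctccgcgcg
Pgam1, chr19:41911621-41911920, plus strand: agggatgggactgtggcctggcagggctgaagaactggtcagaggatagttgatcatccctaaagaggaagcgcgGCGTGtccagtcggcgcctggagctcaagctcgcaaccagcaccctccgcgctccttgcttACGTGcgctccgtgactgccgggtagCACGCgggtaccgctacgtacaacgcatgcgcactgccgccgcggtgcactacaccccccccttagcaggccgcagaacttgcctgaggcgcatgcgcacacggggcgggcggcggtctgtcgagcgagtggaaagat
Ldha, chr7:46845554-46845853, plus strand: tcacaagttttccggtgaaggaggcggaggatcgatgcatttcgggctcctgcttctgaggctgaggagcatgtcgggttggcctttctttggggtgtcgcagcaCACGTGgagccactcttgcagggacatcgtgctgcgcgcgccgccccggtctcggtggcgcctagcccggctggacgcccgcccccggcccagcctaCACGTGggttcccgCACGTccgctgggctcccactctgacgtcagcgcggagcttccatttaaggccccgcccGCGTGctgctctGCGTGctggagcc
Egln3, chr12:54203825-54204124, minus strand: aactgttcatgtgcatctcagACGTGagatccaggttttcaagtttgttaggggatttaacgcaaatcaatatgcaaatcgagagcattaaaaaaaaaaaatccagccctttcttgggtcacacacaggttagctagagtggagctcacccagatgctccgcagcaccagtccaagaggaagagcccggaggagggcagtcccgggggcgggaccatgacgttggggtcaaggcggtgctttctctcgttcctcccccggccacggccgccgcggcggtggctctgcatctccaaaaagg
Car12, chr9:66713436-66713735, plus strand: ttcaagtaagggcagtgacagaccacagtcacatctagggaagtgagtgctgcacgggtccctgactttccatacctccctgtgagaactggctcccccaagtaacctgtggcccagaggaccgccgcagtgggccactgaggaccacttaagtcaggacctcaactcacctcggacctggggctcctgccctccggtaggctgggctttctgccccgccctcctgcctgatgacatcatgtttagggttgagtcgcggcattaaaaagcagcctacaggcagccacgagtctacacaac
The Slc2a1 window held 1 ACGTG and 1 GCGTG, that of Pgam1 held 1 and 2, and that of Egln3 held 1 and 0. The first of the 2 Ldha windows held 5 ACGTG and 2 GCGTG, with 2 CACGTG palindromes among them. The Car12 window held none of these letters.

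The comparison of both carcinoma stages with both premalignant stages asks which members differ between malignant and premalignant lesions, and its fold change uses none of the normal samples. In carcinoma (12 samples), 18 of the 36 members rose and 3 fell relative to hyperplasia and dysplasia (15 samples), where 19.6% of all tested genes rose and 18.8% fell (38.4% in all). Of the 13 hypoxia-induced members 9 rose and 1, Vegfa, fell. Of the 23 glycolysis members 9 rose and 2, Pfkm and Aldoa, fell. The median log2 fold change was 0.20 over the members and -0.01 over all tested genes. A list of 9 members known as abundant in muscle held Hk2, Gpi1, Pfkm, Aldoa, Tpi1, Gapdh, Pgk1, Pkm and Ldha. Of these 2 rose and 2 fell, while of the 27 members outside the list 16 rose and 1 fell. The list does not part the members by the muscle score. Within stages Ldhb, outside it, went up with the score by 0.99 on the log2 scale per unit. Pgk1, Pkm and Ldha, on it, had slopes of 0.16, 0.09 and 0.06 that were not called. With the muscle score as a covariate, 17 members rose and 1 fell, 16 of them among the 21 called without it, against 15.9% and 14.3% of all genes. The calls for Aldoa, Car9, Kdm3a, Ndrg1 and Vegfa were lost, and Pdk1 and Bnip3 were gained. Without C12, 16 members rose and 2 fell, and the shares of all genes in that fit are not given here. Other marker lists moved in the same comparison. Of 9 tested neutrophil markers 6 rose and 0 fell, with a summed level of 14.8 to 29.3 CPM in hyperplasia, 18.4 to 56.6 in dysplasia, 30.1 to 113 for carcinoma in situ and 39.1 to 145 for invasive carcinoma. Of 8 proliferation markers 4 rose and 0 fell, with 315 to 435, 304 to 401, 276 to 493 and 340 to 498 CPM in the same order. None of these markers was at 0 in any stage, and their part in the members' differences was not tested.

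Against normal tissue, calls fell on both sides. In invasive carcinoma 8 members rose and 8 fell, against 23.4% and 22.7% of all genes (46.1% in all). In carcinoma in situ 8 rose and 9 fell, against 19.4% and 18.2% (37.6% in all). In dysplasia 4 rose and 9 fell, against 13.3% and 12.4% (25.7% in all). In hyperplasia 0 rose and 4 fell, against 8.22% and 6.07% (14.3% in all). In the carcinoma stages these counts are close to the shares of all genes. Many of these calls were lost when a single normal sample was left out. Without D02, the members called went from 4 to 1 in hyperplasia and from 13 to 1 in dysplasia. They went from 17 to 9 in carcinoma in situ and from 16 to 14 in invasive carcinoma. A fit with fewer normal samples has less power for every gene, and the shares of all genes without D02 are not given here. Muscle scores in dysplasia and both carcinoma stages did not overlap those of normal tissue, so there the score as a covariate extends a slope. With this covariate, 2, 2, 5 and 3 members were called from hyperplasia to invasive carcinoma, against 10.1%, 3.32%, 14.9% and 8.20% of all genes. They were Bnip3 and Egln3 in hyperplasia, Bnip3 and Ndrg1 in dysplasia, Slc2a1, Pgam1, Eno1, Car12 and Bnip3 in carcinoma in situ, and Slc2a1, Eno1 and Car12 in invasive carcinoma. In a test of any difference among the 5 stages, 24 of the 36 members passed, against 53.2% of all genes.

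**Figure D2:**
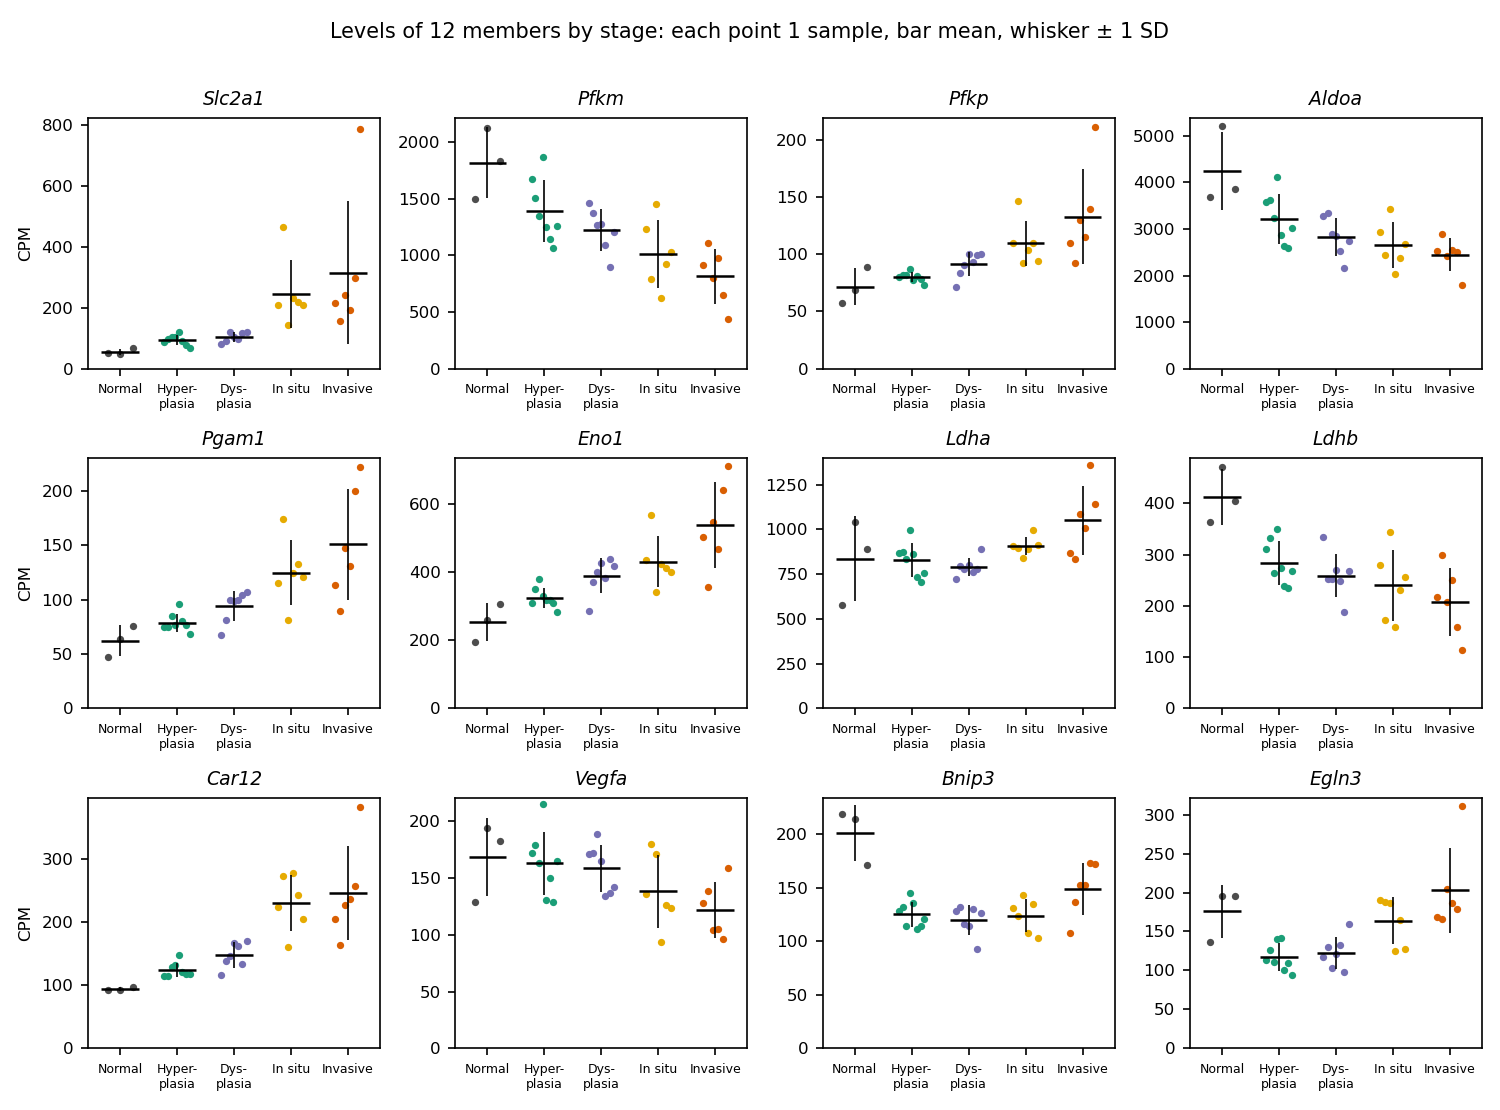
CPM of 12 members (panels, axes from 0) by stage, with 1 point per sample, a bar at the group mean and a whisker of ± 1 SD. Slc2a1 lies between 144 and 786 CPM in the carcinoma samples, all above the other 3 stages, while Pfkm, Aldoa and Ldhb are highest in normal tissue.

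Glucose enters cells through the GLUT transporters, and the gene for GLUT1, Slc2a1 (ENSMUSG00000028645.11, chr4:119108711-119137983, plus strand, GRCm38), had the largest rise among the members called in carcinoma. It was at 49.6, 47.6 and 66.9 CPM in the normal samples D01, D02 and D03. The lowest, median and highest values were 68.7, 93.2 and 121 CPM in hyperplasia and 80.4, 104 and 121 in dysplasia. In carcinoma in situ they were 144, 213 and 465 CPM, and in invasive carcinoma 157, 228 and 786. Every carcinoma sample thus lay above every premalignant sample, and every premalignant sample above every normal one. The lowest premalignant value, 68.7 CPM, stood close to the 66.9 CPM of D03. Slc2a1 was not called against normal tissue in hyperplasia or dysplasia. The highest value came from C12 and the next, 465 CPM, from carcinoma in situ sample C02. The rise from premalignant to carcinoma was 2.81-fold (log2 1.49 ± 0.19, edgeR adjusted p = 6.9e-06), with 12 of 12 samples in that direction, and it was 1.24 on the log2 scale without C12. Against normal tissue it was 5.75-fold in invasive carcinoma (log2 2.52 ± 0.40, adjusted p = 4.0e-05) and log2 2.17 ± 0.39 in carcinoma in situ. The carcinoma difference was 1.12 with the muscle score as a covariate (adjusted p = 4.6e-05). Beside it, 6 of 7 basal keratinocyte markers rose in the same comparison. Their summed level was 5451 to 7863 CPM in hyperplasia, 5563 to 10291 in dysplasia, 7157 to 12394 for carcinoma in situ and 8237 to 20804 for invasive carcinoma, with none at 0, and their part in the result was not tested. Slc2a3, which encodes the transporter GLUT3, was far lower per kb of annotated exon, at 0.611 CPM per kb in normal tissue against 15.6 for Slc2a1. It was at 7.32, 3.72 and 2.24 CPM in the normal samples, and at 2.20 to 3.52 CPM in hyperplasia, 1.74 to 4.02 in dysplasia, 3.28 to 3.82 for carcinoma in situ and 2.23 to 4.43 for invasive carcinoma. It did not pass in carcinoma against premalignant tissue (log2 0.32 ± 0.14, adjusted p = 0.0688), and its fall in dysplasia (log2 -0.70 ± 0.25, adjusted p = 0.0360) was lost without any of 6 single samples. It was -0.13 on the log2 scale without D01, whose 7.32 CPM was the highest value of all.

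Hexokinases trap glucose as glucose 6-phosphate. Hk1, the form most tissues use, had means of 134 ± 15.4 CPM (SD, as for all means here) over the 3 normal samples, 173 ± 12.2 over the 8 of hyperplasia, 184 ± 23.4 over the 7 of dysplasia, 183 ± 46.4 over the 6 of carcinoma in situ and 177 ± 38.5 over the 6 of invasive carcinoma. Hk2, the form of muscle and of many tumours, had means of 359 ± 79.8, 282 ± 39.4, 279 ± 22.1, 245 ± 62.0 and 233 ± 48.3 CPM in the same order. Hk1 was called higher than normal in dysplasia and carcinoma in situ (log2 0.46 ± 0.17 and 0.45 ± 0.17, edgeR adjusted p = 0.0408 and 0.0378), and both calls were lost without any 1 of the normal samples. Hk2 fell in invasive carcinoma against normal tissue (log2 -0.62 ± 0.17, adjusted p = 0.00475) and was not called against premalignant tissue (log2 -0.23 ± 0.10, adjusted p = 0.0637). Within stages Hk2 went up with the muscle score, by 0.43 ± 0.15 on the log2 scale per unit (adjusted p = 0.0272), and with that score as a covariate its difference from normal was -0.25 (adjusted p = 0.494). Per kb of annotated exon, Hk2 made up 78.8% ± 5.23 of both hexokinases in normal tissue and 65.3% ± 4.95 in invasive carcinoma. The log2 ratio of Hk2 to Hk1 was 0.93, 1.83 and 1.45 in the normal samples and 0.02 to 0.95 in the carcinoma samples. Its difference of -0.98 between carcinoma in situ and normal tissue passed an exact permutation test at an adjusted p of 0.0463, whereas that of -1.0 in invasive carcinoma did not (0.0583).

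Glucose 6-phosphate is turned into fructose 6-phosphate by the isomerase Gpi1 and then committed to glycolysis by phosphofructokinase, whose muscle, liver and platelet forms are encoded by Pfkm, Pfkl and Pfkp. Gpi1 was at 548, 692 and 590 CPM in normal tissue and at means of 502 to 517 CPM in the other stages. It was called lower than normal in each of them, by 0.24 to 0.28 on the log2 scale, and each of these calls was lost without D02. From hyperplasia to invasive carcinoma they were kept in 31, 33, 33 and 25 of 40 alternatives. The phosphofructokinase forms moved in opposite directions. Pfkm (ENSMUSG00000033065.14, chr15:98092589-98132451, plus strand) was at 1499, 2122 and 1830 CPM in the normal samples. Its lowest, median and highest values were 1063, 1302 and 1863 CPM in hyperplasia, 896, 1270 and 1458 in dysplasia, 626, 976 and 1451 for carcinoma in situ and 433, 856 and 1106 for invasive carcinoma. No invasive carcinoma sample reached the lowest normal one, but carcinoma and premalignant samples overlapped. Pfkm fell by 1.16 ± 0.23 on the log2 scale in invasive carcinoma against normal tissue (edgeR adjusted p = 2.3e-04) and by 0.53 ± 0.13 in carcinoma against premalignant tissue (adjusted p = 0.00255). Adding the muscle score as a covariate gave -0.30 (adjusted p = 0.233) and -0.34 (adjusted p = 7.3e-04).

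Pfkl (ENSMUSG00000020277.10, chr10:77986947-78010083, minus strand) was at 47.1, 64.4 and 75.5 CPM in the normal samples, and its lowest, median and highest values were 56.5, 61.3 and 70.8 CPM in hyperplasia and 51.1, 72.7 and 86.0 in dysplasia. In carcinoma in situ they were 81.6, 89.6 and 105 CPM, and in invasive carcinoma 76.5, 106 and 182. It rose 1.51-fold in carcinoma against premalignant tissue (log2 0.59 ± 0.10, edgeR adjusted p = 6.4e-05), with 9 of 12 carcinoma samples above every premalignant one. Pfkp (ENSMUSG00000021196.14, chr13:6579768-6648777, minus strand) was at 57.2, 68.5 and 89.1 CPM in normal tissue and at 73.3, 80.6 and 87.1 CPM in hyperplasia, 71.8, 93.2 and 100 in dysplasia, 92.8, 107 and 147 for carcinoma in situ and 92.4, 122 and 212 for invasive carcinoma. Its rise was 1.41-fold (log2 0.50 ± 0.09, adjusted p = 2.2e-04), also with 9 of 12 samples above the premalignant range. Both kept their calls with the muscle score as a covariate (log2 0.47 and 0.36), and within stages both went down as that score went up. Per kb of annotated exon the muscle form still dominated everywhere. Pfkm was 97.4% ± 0.476 of the 3 genes' level in normal tissue, 96.3% ± 0.621 in hyperplasia and 95.3% ± 1.19 in dysplasia. It was 92.8% ± 2.52 for carcinoma in situ and 88.6% ± 7.19 for invasive carcinoma. These shares rest on exon lengths of 3340 bases for Pfkm, 6675 for Pfkl and 13401 for Pfkp. The log2 ratio of Pfkl to Pfkm was 1.15 higher in carcinoma than in premalignant tissue and that of Pfkp to Pfkm 1.04 higher (permutation test, adjusted p = 7.0e-04 for each).

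The bifunctional enzymes Pfkfb3 and Pfkfb4 set the level of fructose 2,6-bisphosphate, which activates phosphofructokinase. Pfkfb3 had its highest mean in hyperplasia, 34.6 ± 8.10 CPM, against 21.6 ± 8.62 in normal tissue, 19.0 ± 3.34 in dysplasia, 25.2 ± 7.75 for carcinoma in situ and 27.4 ± 10.3 for invasive carcinoma. It fell from hyperplasia to dysplasia (log2 -0.86 ± 0.21, edgeR adjusted p = 0.0144), with 6 of 7 dysplasia samples below every hyperplasia sample, and was not called in carcinoma against premalignant tissue (0.03 ± 0.15). Pfkfb4 had group means of 33.2 to 42.7 CPM and was not called in any comparison.

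Aldolase cleaves the sugar phosphate, and Tpi1 interconverts the products. Aldoa (ENSMUSG00000030695.16, chr7:126795234-126800751, minus strand), the muscle and general form, was the most abundant member per length, at 1462 CPM per kb in normal tissue. It was at 3682, 5220 and 3863 CPM in the normal samples. In hyperplasia its lowest, median and highest values were 2598, 3131 and 4116 CPM, in dysplasia 2172, 2848 and 3335, in carcinoma in situ 2036, 2557 and 3439 and in invasive carcinoma 1798, 2512 and 2887. All dysplasia and carcinoma samples lay below the 3 normal ones. Aldoa fell by 0.80 ± 0.17 on the log2 scale in invasive carcinoma against normal tissue (edgeR adjusted p = 3.7e-04), and the value was -0.17 (adjusted p = 0.355) with the muscle score as a covariate. Its fall of 0.24 ± 0.09 against premalignant tissue (adjusted p = 0.0406) was lost when any of 15 single samples was left out, with adjusted p up to 0.0759. Aldoc, the form known from brain, stood at 7.86, 6.14 and 7.21 CPM in normal tissue and at 4.32, 5.50 and 6.48 CPM (lowest, median and highest) in hyperplasia, 5.40, 6.76 and 8.35 in dysplasia, 5.88, 7.43 and 9.65 for carcinoma in situ and 5.78, 9.49 and 10.2 for invasive carcinoma. It rose in carcinoma against premalignant tissue (log2 0.39 ± 0.09, adjusted p = 0.00177). Its rise from hyperplasia to dysplasia (log2 0.42 ± 0.13, adjusted p = 0.0469) was lost when any of 12 single samples was left out. The log2 ratio of Aldoa to Aldoc was accordingly 0.64 lower in carcinoma than in premalignant tissue (permutation test, adjusted p = 0.00385). Tpi1 had means of 889 ± 173, 800 ± 93.9, 717 ± 74.4, 744 ± 80.9 and 767 ± 58.2 CPM from normal tissue to invasive carcinoma and was called in none of the comparisons.

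The later steps of glycolysis yield ATP, and here too some enzymes rose in carcinoma while Gapdh, the most abundant, was not called there against premalignant tissue. Gapdh, which oxidises glyceraldehyde 3-phosphate, had means of 3438 ± 699 CPM in normal tissue, 2769 ± 373 in hyperplasia, 2491 ± 283 in dysplasia, 2600 ± 291 for carcinoma in situ and 2530 ± 200 for invasive carcinoma. It fell in dysplasia, carcinoma in situ and invasive carcinoma against normal tissue by 0.46, 0.40 and 0.44 on the log2 scale, and all of these calls were lost without D02, which had 4227 CPM. Its difference in carcinoma against premalignant tissue was -0.03 ± 0.07. Pgk1, phosphoglycerate kinase, rose in that comparison by 0.24 ± 0.06 (edgeR adjusted p = 0.00274), from a mean of 336 to 397 CPM. Pkm, pyruvate kinase of muscle and most growing tissues, had group means of 1194 to 1325 CPM and was called nowhere.

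Pgam1 (ENSMUSG00000011752.7, chr19:41911923-41918660, plus strand), phosphoglycerate mutase outside muscle, was at 47.5, 63.7 and 76.2 CPM in the normal samples and at 68.3, 76.8 and 95.9 CPM (lowest, median and highest) in hyperplasia. Dysplasia gave 68.0, 100 and 107 CPM, carcinoma in situ 81.5, 123 and 174 and invasive carcinoma 90.1, 139 and 222. Of the 12 carcinoma samples, 10 lay above every premalignant one. The rise from premalignant to carcinoma was 1.59-fold (log2 0.67 ± 0.12, edgeR adjusted p = 1.2e-04) and that from normal to invasive carcinoma 2.41-fold (log2 1.27 ± 0.23, adjusted p = 1.0e-04). Eno1 (ENSMUSG00000063524.13, chr4:150236721-150248879, plus strand), enolase outside muscle, was at 196, 258 and 307 CPM in the normal samples, and its lowest, median and highest values were 283, 317 and 379 CPM in hyperplasia and 285, 401 and 439 in dysplasia. They were 342, 419 and 567 CPM for carcinoma in situ and 357, 525 and 710 for invasive carcinoma. Eno1 rose 1.35-fold in carcinoma against premalignant tissue (log2 0.44 ± 0.09, adjusted p = 5.6e-04), with 6 of 12 samples above the premalignant range, and 2.11-fold in invasive carcinoma against normal tissue (log2 1.08 ± 0.18, adjusted p = 4.0e-05). With the muscle score as a covariate the values in carcinoma against premalignant tissue were 0.50 for Pgam1 (adjusted p = 6.8e-04) and 0.33 for Eno1 (adjusted p = 0.00339). Against normal tissue the invasive carcinoma call of Eno1 was kept (0.66, adjusted p = 0.025) and that of Pgam1 was lost (0.65, adjusted p = 0.0760). Reads of Gapdh, Eno1, Pgk1, Aldoa, Tpi1, Pgam1, Pkm and Ldha can be shared with processed pseudogenes or near copies, so that their levels are uncertain. The listed copies held few counts, 13 to 63 per sample for Eno1b, 25 to 86 for Pgk1-rs7 and 18 to 62 for Ldha-ps2.

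Pyruvate is reduced to lactate by lactate dehydrogenase, whose A and B subunits are encoded by Ldha and Ldhb, or enters the mitochondrion, which Pdk1 restrains. Ldha (ENSMUSG00000063229.15, chr7:46841475-46855627, plus strand) was at 578, 1039 and 892 CPM in the normal samples and had lowest, median and highest values of 705, 848 and 997 CPM in hyperplasia and 723, 781 and 888 in dysplasia. They were 840, 903 and 998 CPM for carcinoma in situ and 835, 1049 and 1361 for invasive carcinoma. The normal samples spanned the whole premalignant range, and Ldha was not called against normal tissue in any stage. It rose 1.21-fold in carcinoma against premalignant tissue (log2 0.27 ± 0.08, edgeR adjusted p = 0.00753), with 5 of 12 samples above every premalignant one. Ldhb (ENSMUSG00000030246.12, chr6:142490249-142507957, minus strand) was at 363, 471 and 404 CPM in the normal samples. Values were 234, 270 and 349 CPM in hyperplasia, 188, 253 and 334 in dysplasia, 158, 243 and 344 for carcinoma in situ and 114, 212 and 300 for invasive carcinoma, as lowest, median and highest. All samples of the other 4 stages lay below the lowest normal sample. Ldhb fell by 0.99 ± 0.22 on the log2 scale in invasive carcinoma against normal tissue (adjusted p = 6.5e-04). It also tracked muscle, with 0.99 ± 0.12 on the log2 scale per unit of the muscle score within stages, and with that covariate the difference from normal was -0.19 (adjusted p = 0.495).

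The balance between the subunits was followed as a log2 ratio that was not adjusted for the muscle score. Such a ratio moves more than either gene wherever 1 rises and the other falls. Per kb of annotated exon Ldhb made up 51.5% ± 4.66 of both in normal tissue, 41.8% ± 1.60 in hyperplasia and 40.7% ± 4.58 in dysplasia. It made up 35.3% ± 7.16 for carcinoma in situ and 29.6% ± 9.74 for invasive carcinoma. These shares rest on exon lengths of 3310 bases for Ldha and 1570 for Ldhb. The log2 ratio of Ldha to Ldhb was 0.67, 1.14 and 1.14 in the normal samples, 1.39 to 1.65 in hyperplasia, 1.12 to 2.04 in dysplasia, 1.29 to 2.50 for carcinoma in situ and 1.48 to 3.32 for invasive carcinoma. In carcinoma it was 0.59 higher than in premalignant tissue (permutation test, adjusted p = 0.00854), with 6 of 12 samples above the premalignant range. Of the genes themselves Ldha was called in that comparison and Ldhb was not. Pdk1, which inhibits pyruvate dehydrogenase, had means of 80.5 ± 16.5 CPM in normal tissue and 61.2 ± 6.71, 59.1 ± 6.08, 62.7 ± 4.91 and 69.9 ± 9.89 CPM from hyperplasia to invasive carcinoma. It was called lower than normal in hyperplasia, dysplasia and carcinoma in situ (log2 -0.40, -0.45 and -0.36), each time only with D02, at 97.5 CPM, in the fit.

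**Figure D3:**
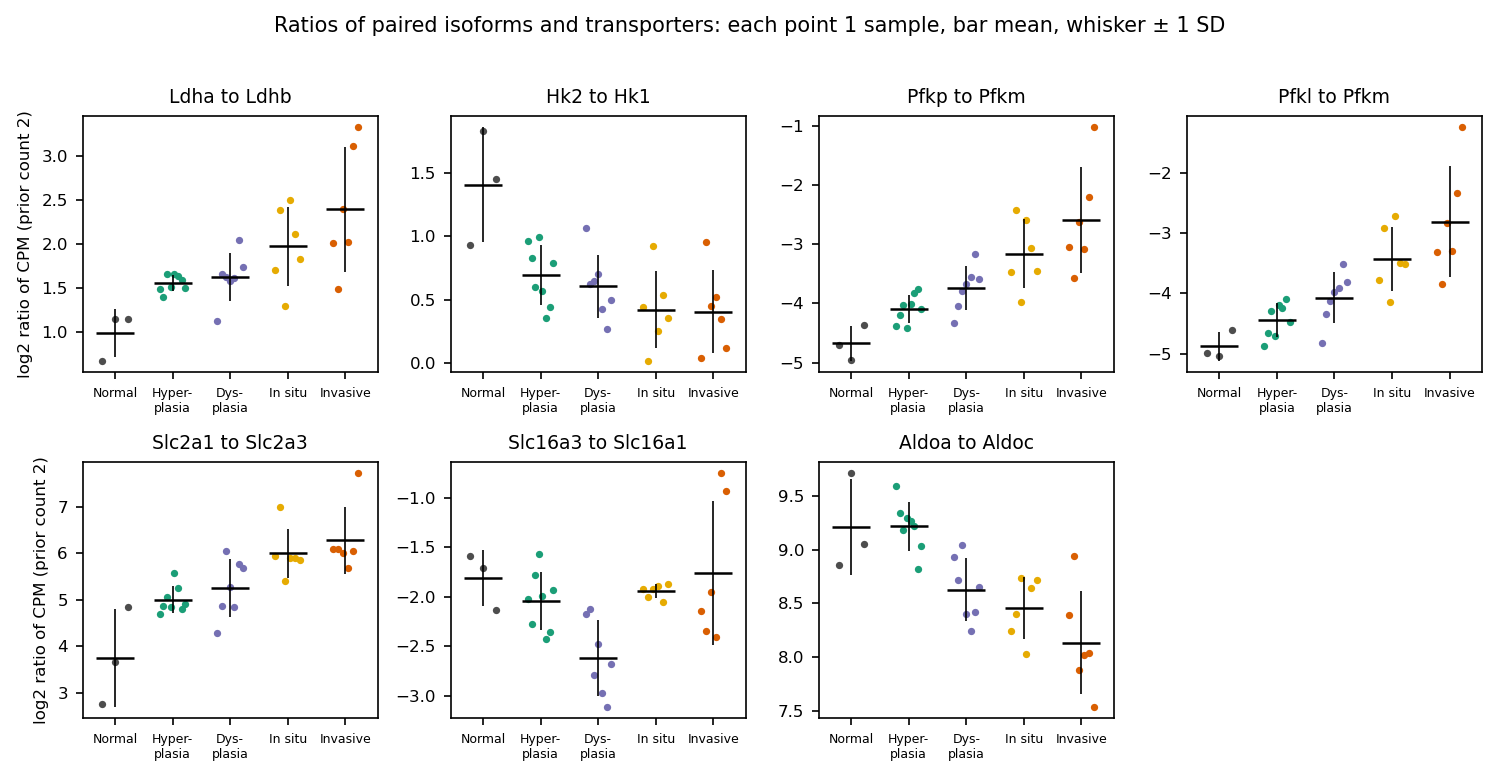
Log2 ratio of the CPM of 7 pairs of isoforms or transporters (panels) by stage, with 1 point per sample, a bar at the mean and a whisker of ± 1 SD. The Ldha to Ldhb, Pfkp to Pfkm and Pfkl to Pfkm ratios are lowest in normal tissue and highest in invasive carcinoma, where C12 is the top point.

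Over the 7 pairs and 5 comparisons, 18 of 35 ratios passed an exact or random permutation test after adjustment over all 35. Against 3 normal samples the smallest p that exact permutation allows is 0.0121 with 8 samples and 0.0238 with 6, so all calls against normal tissue rest on groups that do not overlap. Leaving out any normal or carcinoma in situ sample, or any invasive carcinoma sample but C05, left 5 ratios called. For carcinoma against premalignant tissue, 6 of the 7 ratios passed, of which that of Slc16a3 to Slc16a1 kept its call in only 13 of 31 alternatives. The ratio of Slc2a1 to Slc2a3 was 1.02 higher in carcinoma (adjusted p = 7.0e-04). None of the ratios was tested with the muscle score as a covariate. Within stages Ldhb and Pfkm went up with that score, by 0.99 and 1.06 on the log2 scale per unit. Ldha had a slope of 0.06 (not called), Pfkl one of -0.51 and Pfkp one of -0.54. How far muscle content accounts for the shifts of these ratios was not tested.

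Lactate leaves cells through the monocarboxylate transporters MCT1 and MCT4, encoded by Slc16a1 and Slc16a3. Slc16a1 had group means of 61.3 to 71.2 CPM and was called nowhere. Slc16a3, the form of glycolytic cells, was at 20.9, 23.8 and 16.6 CPM in normal tissue, 10.8 to 22.6 in hyperplasia, 7.38 to 15.1 in dysplasia, 14.2 to 18.7 for carcinoma in situ and 12.7 to 44.0 for invasive carcinoma. Its lowest stage was dysplasia, and its highest values were 44.0 CPM in C12 and 39.7 CPM in C09, the next highest invasive carcinoma sample. Slc16a3 rose in carcinoma against premalignant tissue (log2 0.62 ± 0.17, edgeR adjusted p = 0.00706; 0.48 without C12), although only 2 of 12 samples lay above the premalignant range. Its ratio to Slc16a1 was 0.46 higher there (permutation test, adjusted p = 0.0463, and 0.0531 without C12). That call was kept in only 13 of 31 alternatives, which were a prior count of 0.5 and each sample left out.

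Carbonic anhydrases at the cell surface dispose of acid, and 2 of them are known targets of the hypoxia response in tumours. Car12 (ENSMUSG00000032373.15, chr9:66713686-66766845, plus strand) had the smallest p of all members in the test of any difference among stages (edgeR adjusted p = 3.8e-07). It was at 92.2, 92.7 and 96.8 CPM in the normal samples, and its lowest, median and highest values were 114, 120 and 148 CPM in hyperplasia and 116, 146 and 170 in dysplasia. In carcinoma in situ they were 161, 232 and 278 CPM and in invasive carcinoma 164, 232 and 382. The normal samples lay below all 27 others, and 10 of 12 carcinoma samples lay above every premalignant one. The rise was 1.75-fold from premalignant to carcinoma (log2 0.81 ± 0.09, adjusted p = 1.7e-06) and 2.61-fold from normal to invasive carcinoma (log2 1.39 ± 0.18, adjusted p = 5.0e-06). Both were still called, at 0.68 and 0.91 on the log2 scale, with the muscle score as a covariate. Among the windows shown above, its own is the one without either motif. Car9, the textbook hypoxia marker, was barely expressed, with 8 to 211 counts per sample. It was at 0.759, 1.41 and 1.19 CPM in normal tissue, 0.402 to 1.13 in hyperplasia, 0.316 to 1.38 in dysplasia, 0.656 to 1.83 for carcinoma in situ and 0.530 to 9.98 for invasive carcinoma. The 9.98 CPM came from C12, and the next highest value was 1.83. Car9 was called higher in carcinoma than in premalignant tissue (log2 1.22 ± 0.35, adjusted p = 0.00817), with 0.60 (adjusted p = 0.0464) without C12 and 0.64 (adjusted p = 0.192) with the muscle score as a covariate.

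The vascular members parted ways. Adm encodes adrenomedullin, a peptide that widens vessels. It was at 4.55, 6.59 and 7.08 CPM in the normal samples, with lowest, median and highest values of 6.61, 9.07 and 12.3 CPM in hyperplasia, 6.50, 7.86 and 9.77 in dysplasia, 7.73, 11.7 and 41.5 for carcinoma in situ and 8.07, 14.2 and 41.5 for invasive carcinoma. The 2 values of 41.5 CPM came from C02 and C12. Adm rose 2.01-fold in carcinoma against premalignant tissue (log2 1.0 ± 0.23, edgeR adjusted p = 0.00171), with 7 of 12 samples above every premalignant one, and by 0.76 without either of these libraries in turn. Vegfa, the growth factor that recruits vessels and a classic hypoxia target, was the only hypoxia-induced member that fell in that comparison. Its means were 169 ± 34.8 CPM in normal tissue, 163 ± 27.6 in hyperplasia, 159 ± 20.9 in dysplasia, 139 ± 32.0 for carcinoma in situ and 122 ± 24.1 for invasive carcinoma. Vegfa fell by 0.31 ± 0.10 on the log2 scale (adjusted p = 0.0161), and 7 of 12 carcinoma samples lay below every premalignant one. Its value was -0.26 with the muscle score as a covariate (adjusted p = 0.0660). Endothelial markers fell in the same comparison, 8 of 8. Their summed level was 368 to 427 CPM in normal tissue, 284 to 463 in hyperplasia, 246 to 374 in dysplasia, 194 to 333 for carcinoma in situ and 176 to 283 for invasive carcinoma, none was at 0, and their part in the result was not tested.

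Bnip3 and Bnip3l mark mitochondria for removal, and their courses differed. Bnip3 (ENSMUSG00000078566.8, chr7:138890836-138909519, minus strand) was at 219, 214 and 171 CPM in the normal samples. Its lowest, median and highest values were 112, 124 and 145 CPM in hyperplasia, 92.7, 127 and 132 in dysplasia, 103, 127 and 143 for carcinoma in situ and 108, 153 and 173 for invasive carcinoma. All hyperplasia, dysplasia and carcinoma in situ samples lay below the lowest normal sample, and only invasive carcinoma reached it. Bnip3 fell by 0.69 ± 0.12 on the log2 scale in hyperplasia (edgeR adjusted p = 3.4e-04), 0.75 ± 0.12 in dysplasia (adjusted p = 2.4e-04) and 0.70 ± 0.13 in carcinoma in situ (adjusted p = 2.1e-04), and it kept these calls when any single sample was left out and with the muscle score as a covariate. In invasive carcinoma the fall of 0.43 ± 0.13 (adjusted p = 0.00712) was lost without D01 (adjusted p = 0.0548). Bnip3 was thus the only member called lower than normal in all 4 stages besides Gpi1. Bnip3l (ENSMUSG00000022051.15, chr14:66985239-67008877, minus strand) was at 141, 124 and 135 CPM in the normal samples and at 109, 122 and 150 CPM in hyperplasia, 116, 136 and 167 in dysplasia, 127, 156 and 187 for carcinoma in situ and 137, 198 and 263 for invasive carcinoma. It rose 1.33-fold in carcinoma against premalignant tissue (log2 0.41 ± 0.08, adjusted p = 4.0e-04) and 1.47-fold in invasive carcinoma against normal tissue (log2 0.55 ± 0.15, adjusted p = 0.00437). The muscle score as a covariate left the first at 0.32 (adjusted p = 0.00202) and ended the call of the second (0.18, adjusted p = 0.550).

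Egln3 encodes a prolyl hydroxylase that tags hypoxia-inducible factors for degradation and is itself induced by hypoxia. Egln3 (ENSMUSG00000035105.5, chr12:54178981-54203860, minus strand) was at 136, 196 and 195 CPM in the normal samples and at 94.0, 112 and 142 CPM (lowest, median and highest) in hyperplasia. It was at 97.8, 121 and 159 CPM in dysplasia, 125, 175 and 190 for carcinoma in situ and 166, 183 and 311 for invasive carcinoma. The course was a dip: lower than normal in hyperplasia (log2 -0.59 ± 0.17, edgeR adjusted p = 0.0208) and dysplasia (log2 -0.52 ± 0.17, adjusted p = 0.0294), and higher in carcinoma than in premalignant tissue (log2 0.60 ± 0.10, adjusted p = 6.4e-05). Both falls were lost without D02 or without D03, and that in dysplasia also without B03 or B06. The rise was 1.52-fold, with 10 of 12 samples above every premalignant one, and was 0.58 (adjusted p = 4.0e-04) with the muscle score as a covariate. P4ha1 and P4ha2, which encode collagen prolyl hydroxylase subunits, rose in the same comparison by 0.31 ± 0.11 (adjusted p = 0.0252) and 0.27 ± 0.07 (adjusted p = 0.00554), to means of 34.0 and 29.7 CPM. P4ha1 lost its call without C12 (adjusted p = 0.0619). Ndrg1, a stress-responsive gene, had means of 146 ± 23.1 CPM in normal tissue, 129 ± 10.8 in hyperplasia, 104 ± 10.6 in dysplasia, 147 ± 44.8 for carcinoma in situ and 196 ± 135 for invasive carcinoma, where C12 had 466 CPM and the others at most 192. Its rise in carcinoma was 0.56 ± 0.16 (adjusted p = 0.00779) with C12 and 0.32 (adjusted p = 0.0104) without it, and the call was lost with the muscle score as a covariate (0.32, adjusted p = 0.108). The histone demethylase Kdm3a rose by 0.15 ± 0.06 (adjusted p = 0.0441), a call that was lost when any of 16 single samples was left out. Ankrd37, with means of 3.35 to 5.19 CPM, was called nowhere, and the Myc antagonist Mxi1, with means of 66.2 to 78.6 CPM, was called only lower in carcinoma in situ than in normal tissue (log2 -0.25 ± 0.10, adjusted p = 0.0455), a call lost without any of 16 samples.

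**Figure D4:**
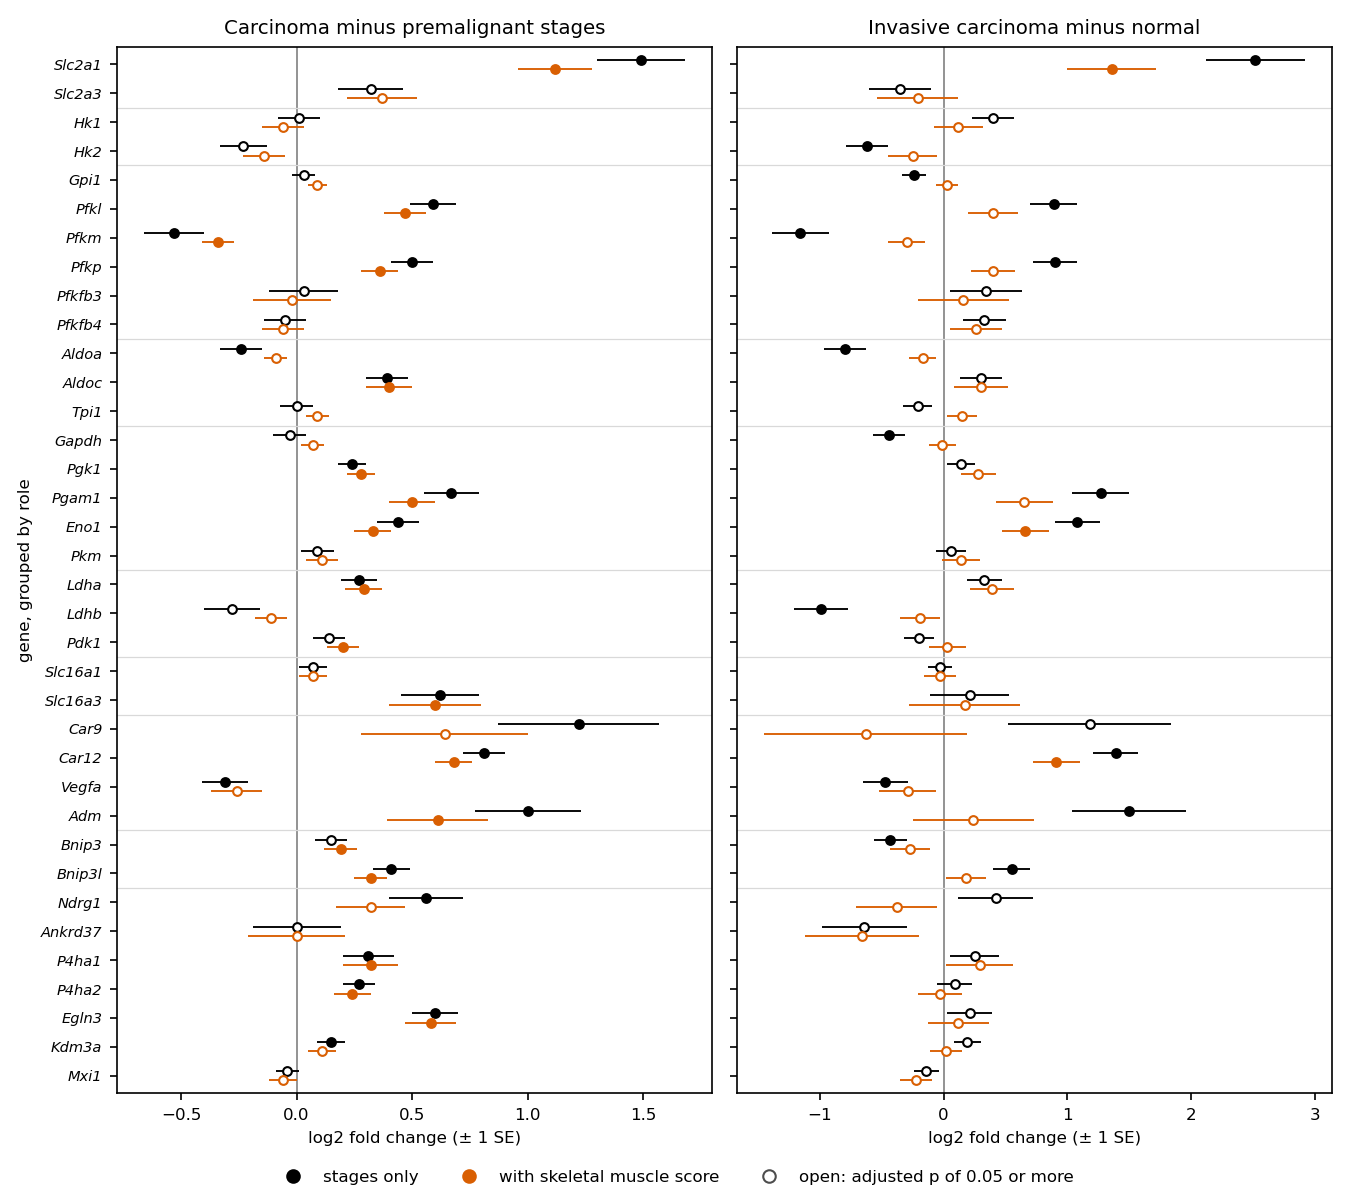
Log2 fold change ± 1 SE of the 36 members, in carcinoma against premalignant tissue (left) and in invasive carcinoma against normal tissue (right), from the fit of stages alone (black) and from one that adds the skeletal muscle score (orange). Open points have an adjusted p of 0.05 or more. On the left most filled points stay filled with the covariate, while on the right only Slc2a1, Eno1 and Car12 do.

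From stage to stage, few members passed in the fit of stages alone. With the muscle score as a covariate, more members were called from dysplasia to carcinoma in situ, as given under the dependence on processing below. The share of all genes in that fit is not given here, so a general gain of calls cannot be told apart from one of the members. In the fit of stages alone, only Aldoc (up) and Pfkfb3 (down) passed from hyperplasia to dysplasia, 1 in each direction. Of all genes 2.99% rose and 2.19% fell there (5.18% in all). From dysplasia to carcinoma in situ Slc2a1 (log2 1.23 ± 0.28, edgeR adjusted p = 0.0161) and Car12 (log2 0.64 ± 0.14, adjusted p = 0.0111) rose and none fell, against 2.99% and 2.47% of all genes (5.47% in all). All 6 carcinoma in situ samples lay above every dysplasia sample for Slc2a1, and 5 of 6 for Car12. The Slc2a1 call was lost without C02 (adjusted p = 0.0588). Between invasive carcinoma and carcinoma in situ no member passed, nor did any other gene (0%), with edgeR, DESeq2 or limma-voom. At an unadjusted p under 0.05 there were 1259 genes (7.14%), 7 members among them, all 7 higher in invasive carcinoma: Bnip3l (log2 0.34 ± 0.12), Bnip3, Pfkl, Car9, Eno1, Egln3 and Pgk1, with adjusted p of 0.628 to 0.694.

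The muscle score moved with many members within stages. In the fit with that covariate, 7 members went up with the score (Ldhb, Pfkm, Aldoa, Gapdh, Hk2, Tpi1 and Gpi1), against 17.4% of all genes. Another 10 went down as it went up (Slc2a1, Pfkl, Pfkp, Pgam1, Eno1, Car9, Car12, Adm, Bnip3l and Ndrg1), against 10.2% of all genes. Per unit of score the slope was 1.06 ± 0.12 on the log2 scale for Pfkm and -1.15 ± 0.24 for Slc2a1. Whether muscle content accounts for part of these members' differences between stages was not tested beyond this covariate. The known muscle forms of the pathway, listed apart from the members, fell with Pfkm. Of Eno3, Pgam2, Pygm, Slc2a4, Gys1 and Fbp2, 5 of 6 fell in carcinoma in situ and invasive carcinoma against normal tissue and in carcinoma against premalignant tissue, all but Fbp2. Slc2a4, the insulin-regulated glucose transporter GLUT4, went from 390 ± 48.9 CPM in normal tissue to 172 ± 53.4 in invasive carcinoma (log2 -1.18 ± 0.22, edgeR adjusted p = 1.3e-04). Pgam2, the muscle mutase, went from 575 ± 146 to 275 ± 76.6 CPM (log2 -1.06 ± 0.22, adjusted p = 3.9e-04). With the muscle score as a covariate these differences from normal tissue were -0.37 and -0.17, neither of them called. In carcinoma against premalignant tissue, Slc2a4 and Pgam2 kept their calls with it (-0.25 for each, adjusted p = 0.00731 and 0.00276). Pygm and Eno3 did too (-0.26 and -0.22, adjusted p = 0.00263 and 0.0119). Gys1 lost its call (-0.13), and Fbp2 was called in neither fit (-0.09). The covariate thus did not remove the differences of all muscle forms in that comparison.

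Genes of the same pathways outside the 36 members were read from 2 further lists. Of 39 further genes of glycolysis, pyruvate handling, glycogen and the pentose phosphate pathway, 36 were tested. They include the 6 muscle forms above. In carcinoma against premalignant tissue 5 of the 36 rose and 16 fell, against 19.6% and 18.8% of all genes. Muscle forms made up 5 of the 16 that fell. The median log2 fold change was -0.21 over the 36 and -0.01 over all genes. The pentose phosphate enzymes Pgd and Tkt rose early. Pgd went from 128 ± 19.9 CPM in normal tissue to 204 ± 14.6 in hyperplasia (log2 0.67 ± 0.11, edgeR adjusted p = 2.4e-04) and 244 ± 29.6 in invasive carcinoma, with all 27 other samples above the 3 normal ones. Tkt went from 106 ± 9.28 CPM to 196 ± 22.2 in hyperplasia (log2 0.89 ± 0.20, adjusted p = 0.00362, 0.0508 without D02) and 264 ± 57.2 in invasive carcinoma. Liver glycogen phosphorylase, Pygl, rose in carcinoma against premalignant tissue (log2 0.69 ± 0.10, adjusted p = 2.2e-05), and Pfkfb1, a muscle and liver form of the regulatory enzyme above, fell (log2 -0.66 ± 0.13, adjusted p = 2.9e-04).

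Of 32 further hypoxia-induced genes, all tested, 11 rose and 2 fell in carcinoma against premalignant tissue, with a median of 0.11, where 19.6% of all genes rose and 18.8% fell. Against normal tissue 11 rose and 10 fell in invasive carcinoma (23.4% and 22.7% of all genes), and 8 rose and 6 fell in carcinoma in situ (19.4% and 18.2%). In dysplasia 0 rose and 6 fell (13.3% and 12.4%), and in hyperplasia 1 rose and 5 fell (8.22% and 6.07%). Fam162a, a mitochondrial protein, rose from 159 ± 14 CPM in hyperplasia and 172 ± 23.1 in dysplasia to 270 ± 57.7 for carcinoma in situ and 327 ± 100 for invasive carcinoma (log2 0.85 ± 0.11, edgeR adjusted p = 4.8e-06). Ero1a, an oxidase of the endoplasmic reticulum, and the cytokine Mif rose by 0.72 ± 0.12 (adjusted p = 8.9e-05) and 0.47 ± 0.08 (adjusted p = 8.0e-05). In carcinoma against premalignant tissue all 3 were also called with the muscle score as a covariate.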

How the data were processed

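RNA of 30 samples was sequenced after a stranded, poly(A)-selecting library protocol, per the labels. Per the submitters' processing notes, the tools were cutadapt 2.4 for trimming and STAR 2.7.2a for alignment, with GRCm38 as the build. How reads were counted, with which strand setting and which annotation, is not given in the sources used here. The authors deposited 1 table of raw read counts per Ensembl gene. Of its 55487 identifiers, 55227 (99.53%) matched GENCODE M21 without the version. Reads that overlapping genes or near copies share may be split in these counts. A second Aldoa row (1 to 20 counts) was not used.

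Counts were fitted in edgeR 4.0.16 (R 4.3.3) with filterByExpr, TMM factors (0.892 to 1.06), 1 mean per stage over all 30 samples and two-sided quasi-likelihood tests, adjusted over the 17638 genes kept. CPM use the TMM factors. The script was tested on simulated data before use. Isoform ratios are log2 ratios of CPM with a prior count of 2, tested by two-sided exact permutation, or 100000 random permutations for 12 against 15 samples (scipy 1.17.1), adjusted over 35 tests. Alternatives were DESeq2 1.42.0, limma-voom (limma 3.58.1), other normalizations, no filter, only the groups compared, the muscle score or the replicate number as a term, a prior count of 0.5 for the ratios and each sample left out. A salivary gland score as a covariate, the removal of the 3 libraries with an erythroid score over 4 and the slopes on the muscle score were added after seeing the data.

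Members and lists were chosen with earlier results of these data known. Values per sample are given for up to 14 members with the smallest p in the test of any difference and for members of the ratios, other members by means or ranges, and from each further list up to 4 genes with the smallest adjusted p. Slc2a4 and Pgam2 have the smallest adjusted p among the muscle forms. One gene that this rule names is not reported here.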

Additional observations from a re-analysis of the deposited data

Results flagged for a closer look

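In groups of 4 to 10 samples, a sample that stood far from the others of its stage was found in 13 of 144 groups of a member and a stage, where chance gives about 7.20. Invasive carcinoma sample C12 was such a sample in 5 of them. It had 1798 CPM of Aldoa, below the 2418 to 2887 CPM of the other invasive carcinoma samples. It was above the others in Ndrg1, with 466 CPM against 116 to 192, and in Egln3, with 311 CPM against 166 to 205. The same held for the collagen prolyl hydroxylase genes P4ha1, with 50.1 CPM against 29.2 to 34.2, and P4ha2, with 41.9 CPM against 24.7 to 29.3.

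Among the dysplasia samples, B01 had the lowest Hk1, 134 CPM against 181 to 204, and the lowest Eno1, 285 CPM against 371 to 439. B06 had the lowest Pgk1, 276 CPM against 322 to 351, and the lowest Bnip3, 92.7 CPM against 114 to 132. B02 had 2.69 CPM of Ankrd37 against 4.11 to 5.27.

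Carcinoma in situ sample C02 had 147 CPM of Pfkp against 92.8 to 110 in the others of its stage. In hyperplasia, A08 had 107 CPM of Ndrg1 against 124 to 143, and A04 had 55.6 CPM of Kdm3a against 47.4 to 50.4.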

How the results depend on the processing

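Of 93 called results of single members and ratios, 30 kept their call under every alternative and 1 reversed: Gpi1 in invasive carcinoma against normal tissue was 0.03 with the muscle score as a covariate (edgeR adjusted p = 0.870). In carcinoma against premalignant tissue, the 21 members called were within 1.5 times under every alternative, and 18 to 23 when single samples were left out. With the muscle score, members called against normal tissue numbered 2 in hyperplasia, 2 in dysplasia, 5 for carcinoma in situ and 3 for invasive carcinoma. From hyperplasia to dysplasia 1 was called and from dysplasia to carcinoma in situ 9, with shares of all genes not given here. With only the groups compared in the fit, members called numbered 9 in hyperplasia (19.5% of all genes), 11 in carcinoma in situ (27.6%), 10 in invasive carcinoma (34.1%) and 5 from hyperplasia to dysplasia (12.7%). In hyperplasia DESeq2 called 7 (17.3% of all genes) and limma-voom 15 (26.3%), and limma-voom called 21 in dysplasia (38.9%) and 7 from hyperplasia to dysplasia (20.4%). Without a filter 8 were called in dysplasia (9.75%). From hyperplasia to dysplasia 1 was called without a filter, with upper-quartile factors or with the salivary gland score. Without the 3 libraries with the highest erythroid scores, 10 were called in hyperplasia (17.5%), 5 from hyperplasia to dysplasia (11.9%) and 5 from dysplasia to carcinoma in situ (8.70%). The causes of these shifts were not tested.

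With single samples left out, the count called was 1 to 8 in hyperplasia, 1 to 16 in dysplasia, 9 to 17 for carcinoma in situ and 14 to 18 for invasive carcinoma against normal tissue, 1 to 2 from hyperplasia to dysplasia and 1 to 5 from dysplasia to carcinoma in situ. Samples that moved a count by over 1.5 times were D02 (to 1, 1 and 9 in hyperplasia, dysplasia and carcinoma in situ), D01 and C12 (to 7 in hyperplasia), A04 (to 8 in hyperplasia), B03 and B06 (to 8 and 7 in dysplasia) and C12 (to 5 from dysplasia to carcinoma in situ). Shares of all genes without single samples are not given here. A general loss or gain of calls therefore cannot be told apart from one of the members. Of the isoform ratios, 18 of which were called with all samples, 5 to 27 were called when single samples were left out. All ratio calls against normal tissue sat at the smallest p that exact permutation allows. Leaving out a sample raises this limit in the comparisons that use its stage. How far that accounts for the range was not tested.

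The replicate numbers gave no clear sign of pairing, which this check cannot exclude. Deviations correlated above 0.1 in 11 of 31 same-numbered pairs (range -0.564 to 0.512). The mean correlation was 0.027 in these pairs and 0.001 in pairs with different numbers. With the number as a replicate block, 15 members were called in carcinoma against premalignant tissue (22.6% of all genes). Against normal tissue 13 were called in dysplasia (23.9%), 15 in carcinoma in situ (33.1%), 11 in invasive carcinoma (21.3%) and 6 in hyperplasia (12.1%). From stage to stage the block gave 2, 3 and 0, and 19 for any difference, with shares of all genes not given here. Only 3 normal samples limit every comparison with normal tissue, and Car9, with 8 to 211 counts, is the least precise member.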
